A study of Mus musculus with 6 samples.

Results

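The 10 genes described here encode the STEAP metalloreductases Steap1, Steap2, Steap3 and Steap4, the siderophore-binding lipocalin Lcn2, the multicopper ferroxidase ceruloplasmin (Cp), the transferrin receptor Tfrc, the iron exporter ferroportin (Slc40a1) and the divalent metal importers Slc11a2 and Slc39a14. They were taken from 22180 genes with a value, each through its only probe set, and 0 probe sets named a member together with another gene. The set was picked because Steap4, Lcn2 and Cp were among the largest increases in these same arrays. The differences between the groups are therefore a description for all 10 members, and no p-value is given for them.

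The samples were prostate epithelial cancer cells from mice with floxed Rb1 and Trp53 alleles and the PB-Cre4 transgene, in which the probasin promoter drives Cre recombinase in prostate epithelium. Both groups therefore share the Rb1 and Trp53 deletion. One group was infected with a lentivirus for the serine/threonine kinase PIM1 (PIM1 cells, 3 arrays) and the other with empty-vector lentivirus (EV cells, 3 arrays). Neither the age of the mice, nor a clone, nor separate cultures or infections are named in the labels, so errors and p-values reflect the scatter of 3 samples a group, whose source may be technical. All samples grew with 2.5% charcoal-stripped serum, bovine pituitary extract and epidermal growth factor at 10 μg/mL each, 1 μg/mL of cholera toxin and 5 μg/mL of an insulin, transferrin and selenium supplement, so transferrin was supplied in the medium of both groups. The comparison asked how expression differs between PIM1 and EV cells on this double-knockout background.

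Cells take up most iron as ferric iron on transferrin, which enters endosomes with its receptor. There a STEAP reductase turns it into ferrous iron, and the transporters of the Slc11a2 and Slc39a14 type move it into the cytosol. Iron that is not used is stored in ferritin or leaves through ferroportin, and a copper-containing ferroxidase such as ceruloplasmin oxidises it again for loading onto transferrin. STEAP proteins also reduce cupric copper, and several were first described in prostate. In inflammation, Lcn2 withholds iron from bacteria by binding their siderophores, and ceruloplasmin is an acute-phase protein of the liver.

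Signals are given on a log2 scale, and differences are PIM1 minus EV in log2 units. The median signal over all genes was between 3.98 and 4.03 on the PIM1 arrays and between 3.99 and 4.03 on the EV arrays. The interquartile range was wider on the PIM1 arrays, at 4.001 to 4.13, than on the EV arrays, at 3.69 to 3.74, and after quantile normalization 47.0% of called genes were higher in PIM1, against 59.6% without it. Pim1 itself read 7.11, 6.89 and 6.97 on the PIM1 arrays, against 5.26, 6.25 and 5.23 on the EV arrays, a difference of 1.41 (standard error 0.255, limma adjusted p = 0.00455). The labels do not name the species of the PIM1 insert, so this probe set may not read it. Of 13 luminal markers 2 were higher and 5 lower in PIM1 at adjusted p under 0.05, and of 10 basal markers 0 were higher and 3 lower. Over all genes 16.1% were higher and 10.9% lower, the shares beside which all marker counts in this paragraph stand. The luminal keratin Krt18 averaged 4.90 ± 0.12 in PIM1 and 9.14 ± 0.06 in EV (SD, n = 3 each), a fall by 4.24 (limma adjusted p = 1.86e-07), and the E-cadherin gene Cdh1 fell by 0.94. Krt19 (-0.73), Fkbp5 (-0.36) and Prom1 (-0.31) were the other luminal markers that fell. The 2 luminal markers that rose were Cd24a, by 1.65, and Hoxb13, by 0.58 (limma adjusted p = 0.000170 and 0.00377). The basal markers that fell were Itga6 (-2.10), Cdh3 (-1.29) and Lamb3 (-1.03). Other defining markers were low or moderate in both groups: Epcam averaged 2.35 in PIM1 and 2.50 in EV, the basal factor Trp63 2.96 in PIM1 and 2.83 in EV, and the luminal keratin Krt8 4.65 in PIM1 and 4.73 in EV. Of 12 fibroblast markers 9 were higher and 2 lower in PIM1, with an average level of 8.13 to 8.16 on the PIM1 arrays and 6.45 to 6.50 on the EV arrays. Among the markers of other cell types, 2 of 13 for macrophages and leukocytes were higher and 2 lower, 0 of 10 for endothelium passed in limma (1 at an unadjusted p under 0.05), and 2 of 8 for smooth muscle were higher and 2 lower. Of 8 hepatocyte markers, listed because Cp and Lcn2 are acute-phase genes of liver, 1 was higher and 1 lower, and albumin (Alb) read 1.70 in PIM1 and 2.11 in EV. The part that other cells may have in the values below was not tested, and in bulk RNA a change in cell mixture and a change per cell cannot be told apart.

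Steap4, Lcn2 and Cp had bright signals in PIM1 cells and low to moderate signals in EV cells. The 250 bases before their RefSeq transcription starts are shown because these members had the largest differences. They are given 5′ to 3′ on the gene's strand, from the GRCm38.p6 promoter table of RefSeq, with capitals for matches to the C/EBP motif TTNNGNAA, the STAT motif TTCNNNGAA, the NF-kappaB motif, spelled GGGA, any 4 letters and CC (each on either strand), and the sense TATA box TATAAA.
Steap4, chr5:7960222-7960471, plus strand: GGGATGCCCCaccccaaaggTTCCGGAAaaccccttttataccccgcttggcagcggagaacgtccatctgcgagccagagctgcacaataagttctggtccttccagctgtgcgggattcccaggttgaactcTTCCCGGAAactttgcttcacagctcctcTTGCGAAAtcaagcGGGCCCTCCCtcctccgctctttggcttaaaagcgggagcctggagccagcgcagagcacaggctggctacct
Lcn2, chr2:32387740-32387989, minus strand: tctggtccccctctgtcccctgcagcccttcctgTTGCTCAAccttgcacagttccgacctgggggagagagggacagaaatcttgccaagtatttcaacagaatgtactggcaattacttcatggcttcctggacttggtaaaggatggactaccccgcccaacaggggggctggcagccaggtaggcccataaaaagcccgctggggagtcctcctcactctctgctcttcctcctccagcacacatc
Cp, chr3:19956999-19957248, plus strand: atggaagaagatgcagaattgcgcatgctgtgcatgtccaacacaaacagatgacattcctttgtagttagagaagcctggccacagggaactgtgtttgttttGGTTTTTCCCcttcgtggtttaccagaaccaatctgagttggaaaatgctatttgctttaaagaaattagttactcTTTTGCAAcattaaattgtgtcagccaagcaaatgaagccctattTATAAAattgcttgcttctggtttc
Counting back from the base before the start as -1, the Steap4 window held a STAT match at -116 to -108, C/EBP matches at -230 to -223 and -87 to -80, and NF-kappaB matches at -250 to -241 and -73 to -64. The Lcn2 window held 1 of these matches, for C/EBP at -216 to -209. The Cp window, the more downstream of 2 listed starts and chosen for print after the matches were seen, held an NF-kappaB match at -146 to -137, a C/EBP match at -70 to -63 and a TATA box at -25 to -20. The window of the other Cp start held a C/EBP match at -206 to -199 and none for STAT, NF-kappaB or TATA. Over all 32851 promoter windows of this length, 36.8% held the C/EBP motif, 7.0% the STAT motif, 17.6% the NF-kappaB motif and 7.6% the TATA box. The metal and antioxidant response elements were also searched, are not capitalised, and occurred in 44.4% and 10.2% of all windows. The other Cp window held the metal element at -102 to -96 and -80 to -74, and the 3 printed windows held neither. Windows of Steap1, Steap2, Steap3 and Tfrc also held the metal element, and a Steap2 window the antioxidant element. The Tfrc windows held none of the capitalised motifs. No 2 of the capitalised matches overlapped. These matches are letters in a window and not measured binding sites.

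Steap4, which encodes a cell-surface and endosomal reductase of iron and copper, read 10.54, 10.62 and 10.60 on the PIM1 arrays, against 2.82, 2.43 and 2.40 on the EV arrays. Every PIM1 array lay far above every EV array, with a gap of 7.72 between the nearest values. The difference was 8.04 (standard error 0.130), a 263-fold ratio and rank 2 of all genes by increase. The EV values lie below the array median and no detection call was used, so they hold an unknown share of background.

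Lcn2, the lipocalin that binds iron-loaded siderophores, read 10.90, 10.90 and 10.95 in PIM1 cells, against 3.50, 3.06 and 3.63 in EV cells. The groups were again far apart, with the EV values below the array median and about as scattered as those of Steap4. The difference was 7.52 (standard error 0.149), a 184-fold ratio and rank 3. Slc22a17, a cell-surface receptor for Lcn2, averaged 5.09 ± 0.22 in PIM1 and 5.04 ± 0.11 in EV (SD, n = 3 each), a difference of 0.05 that did not pass (limma adjusted p = 0.807). Its sign changed to -0.15 after quantile normalization.

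Cp, the plasma ferroxidase that carries copper, read 9.93, 9.95 and 10.07 in PIM1 cells, against 4.99, 4.86 and 5.08 in EV cells. Unlike Steap4 and Lcn2, its EV signal stood above the array median on all 3 arrays. The difference was 5.01 (standard error 0.104), a 32.1-fold ratio and rank 15. The related membrane ferroxidase gene Heph went the other way, at 3.57 ± 0.12 in PIM1 and 4.08 ± 0.31 in EV (SD, n = 3 each), a fall by 0.51 (limma adjusted p = 0.0489). The Heph call was lost under 9 of the 12 alternative settings that include Heph (it is not among the brighter genes), with adjusted p between 0.0546 and 0.143, among them leaving out EV replicate 2 or 3 or any 1 of the PIM1 arrays.

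**Figure D1:**
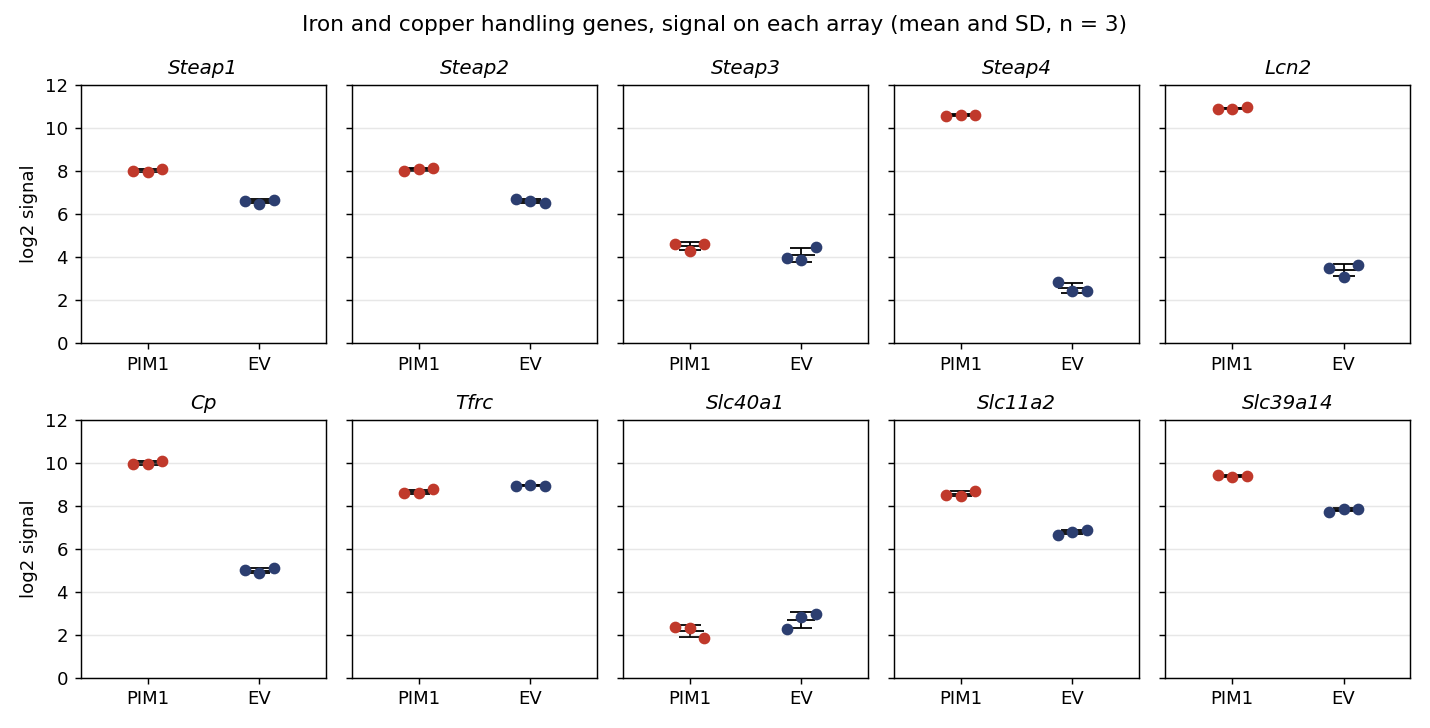
Log2 signal (vertical axis) of the 10 genes on each of the 3 PIM1 (red) and 3 EV (blue) arrays, with the group mean and SD as a bar. Steap4, Lcn2 and Cp show the widest separation, Steap1, Steap2, Slc11a2 and Slc39a14 a smaller one, and the PIM1 and EV points of Steap3 and Slc40a1 overlap.

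The remaining STEAP genes separated into a pair with matching differences and one with little. Steap1, whose protein lacks the NADPH-binding oxidoreductase domain of the other family members, read 8.02, 7.94 and 8.08 in PIM1 cells, against 6.61, 6.48 and 6.67 in EV cells. Steap2, a metalloreductase of the secretory pathway, read 8.01, 8.08 and 8.13 in PIM1 cells, against 6.71, 6.58 and 6.51 in EV cells. Neither gene's groups overlapped, and the differences were 1.43 for Steap1 and 1.47 for Steap2 (standard error 0.101 each), 2.69-fold and 2.77-fold. Steap3, the endosomal ferrireductase of red cell precursors in mouse, read 4.60, 4.29 and 4.62 in PIM1 cells, against 3.94, 3.88 and 4.45 in EV cells. EV replicate 3 lay above PIM1 replicate 2, so the groups overlapped, and the difference was 0.41 (standard error 0.173). Without EV replicate 3 it was 0.59. The 250-base windows of Steap1 and of the 3 listed starts of Steap2 held 0 C/EBP matches, and the STAT motif occurred in 1 of the Steap2 windows, at -135 to -127. Another Steap2 window held NF-kappaB matches at -161 to -152 and -104 to -95. Of the 4 listed Steap3 windows, 3 held a C/EBP match and 2 an NF-kappaB match, so neither motif was limited to the members with the largest differences.

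Steap2 and Steap1 are neighbours on mouse chromosome 5, and Steap4 follows after Zfp804b and Tex47 among the genes with a value. On the other side of Steap2, the flagellar gene Cfap69 averaged 4.45 in PIM1 and 2.94 in EV, a difference of 1.51 (limma adjusted p = 0.000477), close in size to those of Steap1 and Steap2. Zfp804b and Tex47 had low signals and differences of 0.26 and -0.06 (limma adjusted p = 0.239 and 0.778). Beyond Steap4, the calcium-binding protein gene Sri differed by 0.25 (adjusted p = 0.111), and Adam22, at 2.86 in PIM1 and 2.42 in EV, by 0.44 (adjusted p = 0.0115). The other neighbours did not pass: Gtpbp10 differed by 0.41, Gm8773 by 0.07 and the kinase regulator gene Dbf4 by -0.27 (adjusted p = 0.0681, 0.765 and 0.0779). No gene given here beside Steap4 differed by as much as Steap4. Around Lcn2 on chromosome 2, the adjacent gene 1110008P14Rik rose by 2.16, to 8.99 in PIM1 against 6.83 in EV (limma adjusted p = 1.83e-05), and the prostaglandin synthase gene Ptges2 rose by 0.75 (adjusted p = 0.00126). Ciz1, Slc25a25 and Naif1 differed by 0.30, 0.29 and 0.30 and Mir199b by -0.10, and none of these passed (adjusted p = 0.0596, 0.0554, 0.187 and 0.666). Around Cp on chromosome 3, 4632415L05Rik rose most, by 1.24, to 7.71 in PIM1 against 6.47 in EV (limma adjusted p = 0.00100). The organelle biogenesis gene Hps3 rose by 0.47 (adjusted p = 0.0497) and the chromatin remodeller gene Hltf by 0.75 (adjusted p = 0.00380). The Hps3 call was lost in 10 of 13 settings, without any 1 of the 6 arrays among them (adjusted p between 0.0560 and 0.261 over the 10). The other genes there, Gm17771, Crh and Gyg, differed by -0.26, -0.28 and 0.25 and did not pass (adjusted p = 0.291, 0.213 and 0.0813). Leaving out EV replicate 1 brought Ciz1 and Naif1 past the threshold (0.36 and 0.45, adjusted p = 0.0492 and 0.0361).

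**Figure D2:**
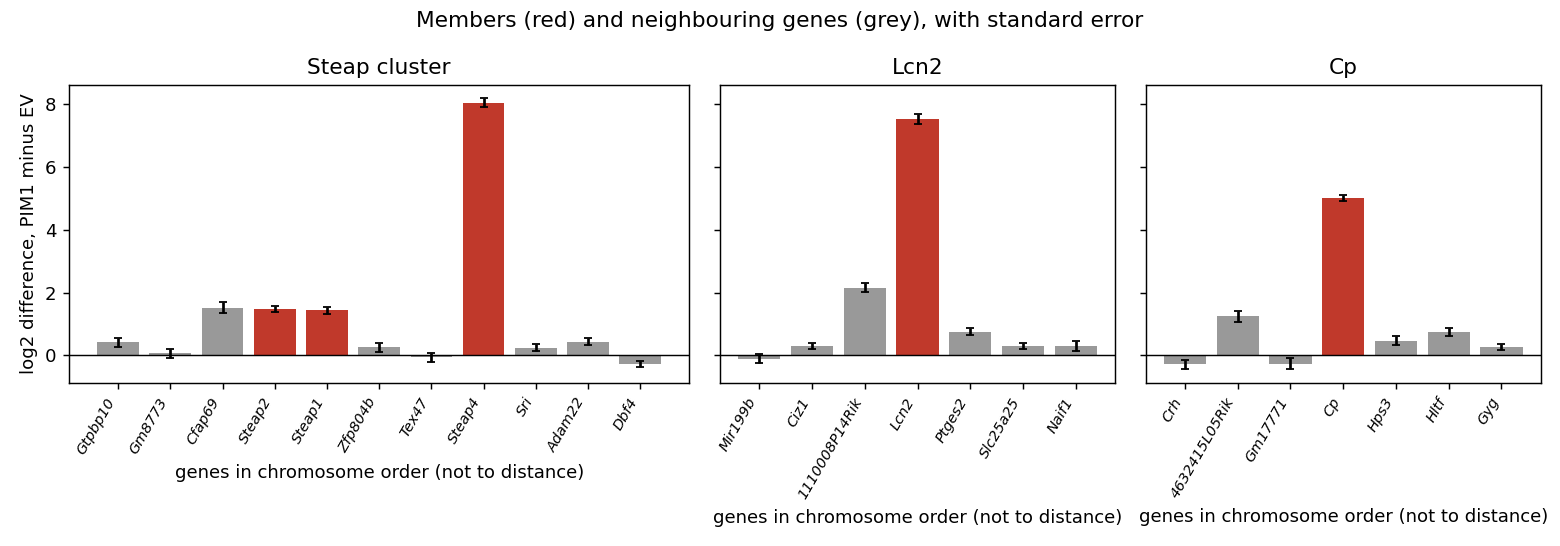
Difference in log2 signal, PIM1 minus EV, with its standard error (vertical axis), for members (red) and genes beside them (grey) in RefSeq gene order, not to distance. Steap4 (8.04), Lcn2 (7.52) and Cp (5.01) stand far above their neighbours, whereas Cfap69, Steap2 and Steap1 have bars of similar height.

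Both divalent metal importers were higher in PIM1 cells. Slc11a2, the proton-coupled transporter also called DMT1, read 8.52, 8.45 and 8.68 in PIM1 cells, against 6.66, 6.78 and 6.85 in EV cells. Its difference was 1.79 (standard error 0.108), a 3.45-fold ratio, with no overlap. Slc39a14, the transporter ZIP14 for zinc, manganese and iron not bound to transferrin, read 9.43, 9.35 and 9.40 in PIM1 cells, against 7.73, 7.84 and 7.84 in EV cells. Its difference was 1.59 (standard error 0.0938), a 3.01-fold ratio, also with no overlap. The close relative Slc39a8 rose by 0.45 (limma adjusted p = 0.0255). That call was lost without PIM1 replicate 2 or 3 or EV replicate 1 or 2, and under quantile or cyclic loess normalization (0.0664 to 0.198 over these settings).

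The transferrin receptor and the exporter had lower mean signals in PIM1 cells. Tfrc, which brings transferrin-bound iron into the cell, read 8.57, 8.59 and 8.76 in PIM1 cells, against 8.94, 8.97 and 8.91 in EV cells. All 3 PIM1 arrays lay below all 3 EV arrays, but by a gap of only 0.15. The difference was -0.30 (standard error 0.0986), and it was -0.44 after quantile normalization. Slc40a1, the one exporter of ferrous iron known in mammals, read 2.38, 2.31 and 1.83 in PIM1 cells, against 2.28, 2.84 and 2.96 in EV cells. These are low signals, the groups overlap, and the difference was -0.52 (standard error 0.211).

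Across the members, 7 of 10 passed adjusted p under 0.05 in the fit over all genes, all 7 higher in PIM1. Over all genes 27.0% passed, 16.1% higher and 10.9% lower, and nothing is read from the comparison because the members were picked on it. Steap3, Tfrc and Slc40a1 did not pass. The groups did not overlap for 8 of 10 members, against 43.2% of all genes. In 7 of these 8 PIM1 lay above EV (22.3% of all genes), and in 1, Tfrc, below (20.9% of all genes).

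**Figure D3:**
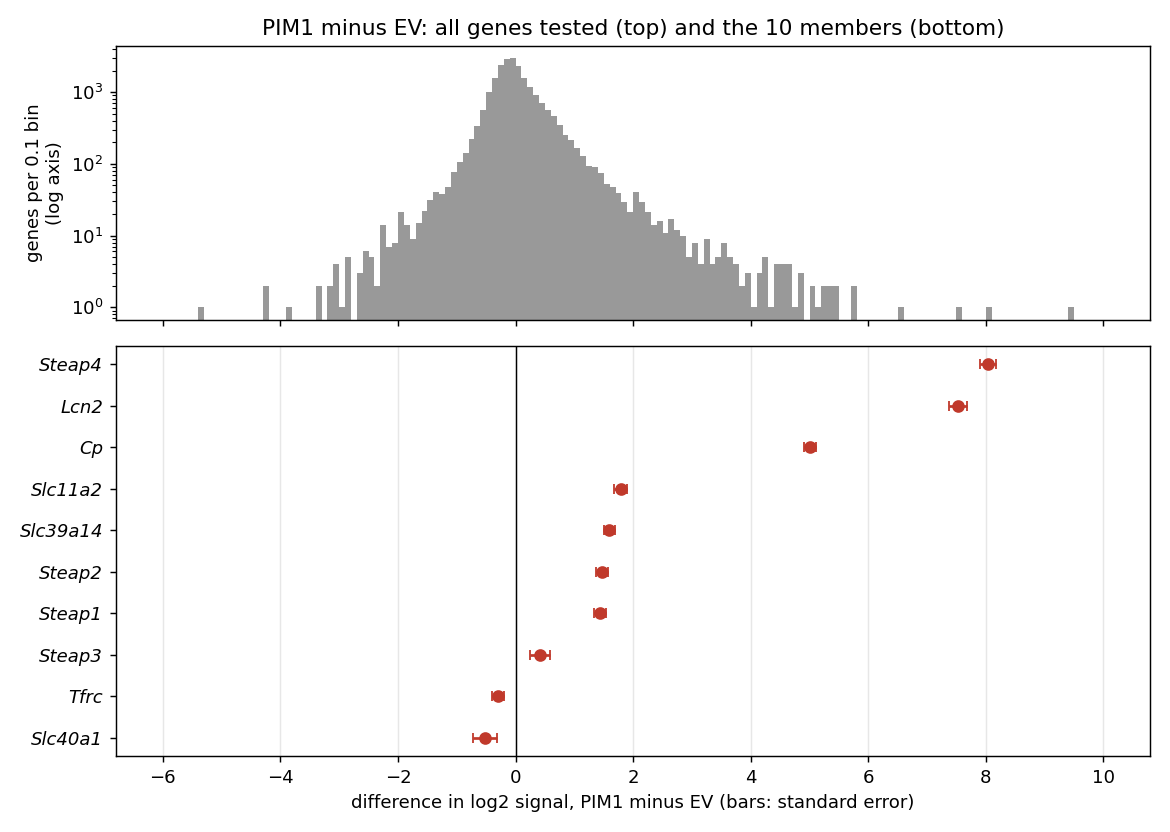
Top, number of genes per bin of 0.1 (log axis) by difference in log2 signal, PIM1 minus EV, for all 22180 genes. Bottom, the 10 members on the same horizontal axis with standard errors, from Steap4 at 8.04 down to Slc40a1 at -0.52; most genes of the upper plot lie close to 0.

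By their pattern over the 6 arrays, each gene centred on its EV mean, Steap4 and Lcn2 were each other's nearest gene among 19382 compared, with a root mean square difference of 0.413. The next nearest to Steap4 were Saa3 (1.01), an acute-phase serum amyloid, and Lbp (1.07), which binds lipopolysaccharide. The next nearest to Lcn2 were Lbp (0.693) and the neutrophil chemokine gene Cxcl5 (1.25). Nearest to Cp were Adm, the adrenomedullin gene (0.165), the adhesion molecule gene Chl1 (0.207) and the complement factor gene Cfb (0.230). With 2 groups this measure mainly compares the size of the group difference. Steap4 and Lcn2 have ranks 2 and 3 by increase, so nothing is read from their nearness. Genes with Gm, Rik or LOC identifiers as names were left out of the 19382.

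Beyond the members, 141 of 156 listed genes had a value, and 49 rose and 5 fell. They comprise 129 genes of iron, copper and zinc handling, of which 45 rose and 5 fell, and 12 lipocalin relatives of Lcn2, which are not metal-handling genes and of which 4 rose. Over the 141 that is 34.8% higher and 3.55% lower, beside 16.1% and 10.9% of all genes, with a median difference of 0.16 beside -0.05 over all genes. The lists were chosen with earlier results of these data known, so nothing is read from this contrast. The fit of the 11090 brighter genes alone held 102 of the 141, of which 59 passed, 52 of them higher. Over all 11090 brighter genes 3831 were higher and 2075 lower, with a median difference of 0.10. The lists thus held more bright genes than the whole, and the part of this in the shares was not tested. After quantile normalization 35 of the 141 rose and 8 fell, while of all 22180 genes 2644 were higher and 2980 lower. The genes that fell were Sod1, Nfu1, Loxl3, Heph and Fdx1; Sod1, Loxl3 and Fdx1 are named after their values were seen. The fibroblast marker levels given above differ between the same arrays.

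Iron storage and iron sensing genes held rises and no falls in the main fit, as did the uptake, heme, copper transport, zinc, metallothionein and lipocalin lists. The heme, copper transport, zinc, metallothionein and lipocalin lists each held a fall in at least 1 alternative setting. Over all genes 16.1% were higher and 10.9% lower. Fth1, the ferritin heavy chain that oxidises and stores iron, read 12.55, 12.55 and 12.53 in PIM1 cells, against 11.62, 11.70 and 11.70 in EV cells, and it rose by 0.87 (limma adjusted p = 0.000254). Ncoa4, the receptor that delivers ferritin to lysosomes, rose by 0.52 (adjusted p = 0.0189), a call lost after quantile normalization or without PIM1 replicate 3 or EV replicate 1 (adjusted p between 0.0506 and 0.0865). In all, 2 of 5 storage genes rose and 0 fell (median 0.19). Of 6 sensing genes 4 rose and 0 fell (median 0.59), and only 2 passed without PIM1 replicate 3. Fbxl5, the ubiquitin ligase subunit that removes iron regulatory proteins when iron is plentiful, rose by 0.89 to 8.35 ± 0.06 in PIM1, against 7.46 ± 0.08 in EV (SD, n = 3 each; limma adjusted p = 0.000329). The oxygen-regulated factor gene Hif1a rose by 0.74 (adjusted p = 0.00169) and Epas1 by 0.98 (adjusted p = 0.0150), and Epas1 did not pass without PIM1 replicate 3 (adjusted p = 0.0654). Aco1, iron regulatory protein 1, rose by 0.43 (limma adjusted p = 0.0217), and this call was lost in 5 of 13 settings, including those without PIM1 replicate 2 or 3 or EV replicate 3 (adjusted p between 0.0556 and 0.0825). Ireb2, iron regulatory protein 2, read 7.67 ± 0.19 in PIM1 and 7.66 ± 0.11 in EV (SD, n = 3 each), a difference of 0.01 that did not pass (adjusted p = 0.957).

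Of 20 heme genes 8 rose and 0 fell (median 0.295), and after quantile normalization 5 rose and 2 fell. Hp, the haemoglobin-binding plasma protein haptoglobin, rose by 3.95 to 7.49 ± 0.20 in PIM1, against 3.54 ± 0.45 in EV (SD, n = 3 each; limma adjusted p = 7.99e-06). Hpx, the heme-binding plasma protein hemopexin, rose by 1.28, and Slc48a1, which carries heme out of lysosomes, rose by 1.36 (adjusted p = 1.04e-04 and 2.43e-05). Hmox1, the heme oxygenase that frees iron from heme, rose by 1.02 (adjusted p = 0.000572). Without PIM1 replicate 3 the count for this list was 5.

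The list of iron uptake genes and that of export and hepcidin genes had small median differences, though single genes rose. Of 8 genes for other iron uptake 3 rose and 0 fell (median 0.03). Hfe, a class I-like partner of the transferrin receptor, rose by 2.18 to 6.03 ± 0.32 in PIM1, against 3.84 ± 0.34 in EV (SD, n = 3 each; limma adjusted p = 0.000163). Snx3, which recycles the transferrin receptor, rose by 0.36 (adjusted p = 0.0388), a call lost in 7 of 13 settings (0.0636 to 0.165). Snx3 and Slc39a8 were both lost, leaving 1 gene of this list, after quantile normalization or cyclic loess or without PIM1 replicate 2, EV replicate 1 or EV replicate 2. Of 9 export and hepcidin genes 1 rose and 1 fell (median -0.07): Bmp6, the ligand that raises hepcidin in liver, rose by 1.05 (limma adjusted p = 0.00165), and Heph is described above. Hamp, which encodes hepcidin, was at 1.42 ± 0.18 in PIM1 and 1.73 ± 0.39 in EV (SD, n = 3 each), far below the array median (adjusted p = 0.284). Of the 6 ferric and cupric reductases outside the STEAP family 0 passed in limma, with 2 at an unadjusted p under 0.05 (median 0.05, range -0.30 to 0.36; -0.12 after quantile normalization), and Cybrd1, the duodenal reductase, differed by -0.30 (adjusted p = 0.0631). Cybrd1 passed without EV replicate 3 (-0.37, adjusted p = 0.0466), Cyb561d1 without EV replicate 2 (0.44, adjusted p = 0.0357) and Cyb561 among the brighter genes alone (0.36, adjusted p = 0.0478). The last 2 were named after their values were seen.

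Of 24 mitochondrial iron and iron-sulfur cluster genes 9 rose and 2 fell (median 0.18). After quantile normalization these counts were 5 and 2, and without PIM1 replicate 2 they were 6 and 1. The assembly factor genes Isca2 and Ciao1 rose by 1.02 and 0.91, and the scaffold gene Iscu by 0.60 (limma adjusted p = 0.000325, 0.000539 and 0.00348). Nfu1, a late-acting cluster carrier, fell by 0.65 (adjusted p = 0.00245), and the ferredoxin gene Fdx1 by 0.42 (adjusted p = 0.0221). Fdx1 did not pass without PIM1 replicate 1 or 2 or EV replicate 2 (adjusted p between 0.0582 and 0.0857).

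Among the listed genes outside the members, copper genes included some of the larger rises, below those of Orm2 and Hp. Of 10 transport and chaperone genes 3 rose and 0 fell (median 0.175), and after quantile normalization 2 rose and 1 fell. Slc31a2, a copper transporter of intracellular membranes, read 8.64, 8.79 and 9.13 in PIM1 cells, against 6.60, 6.62 and 6.81 in EV cells, and rose by 2.18 (limma adjusted p = 1.94e-05). Slc31a1, the main copper importer, rose by 0.69 (adjusted p = 0.00213), whereas the export pump gene Atp7a differed by 0.42 and did not pass (adjusted p = 0.119). Cox19, a factor of cytochrome oxidase assembly, rose by 0.34 (adjusted p = 0.0427), and this call was lost in 10 of 13 settings (0.0562 to 0.337), including each one that left out an array other than EV replicate 2.

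Of 15 copper-dependent enzymes 7 rose and 2 fell (median 0.05). Sod3, the extracellular superoxide dismutase, rose by 2.62 to 10.34 ± 0.06 in PIM1, against 7.72 ± 0.14 in EV (SD, n = 3 each; limma adjusted p = 1.90e-06). Sod1, the cytosolic enzyme of the same reaction, fell by 0.95 to 9.54 ± 0.11 in PIM1, against 10.49 ± 0.04 in EV (adjusted p = 0.000274). The amine oxidase gene Aoc3 rose by 2.72, the peptide-amidating enzyme gene Pam by 1.52 and the collagen cross-linking enzyme gene Lox by 1.21 (adjusted p = 7.20e-05, 3.30e-05 and 5.05e-05), while its relative Loxl3 fell by 0.54 (adjusted p = 0.00732).

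Of 20 zinc and manganese transporters 6 rose and 0 fell (median 0.09), and after quantile normalization 6 rose and 1 fell. The largest of the 4 named by smallest p was Slc30a6, a zinc transporter of the Golgi, which rose by 1.03 (limma adjusted p = 0.000163). Slc39a9 rose by 0.92, Slc30a7 by 0.77 and Slc39a1 by 0.70. The metallothionein genes Mt1 and Mt2, whose small proteins bind zinc and copper, rose by 1.36 and 1.38 (adjusted p = 3.26e-05 and 2.57e-05). Mt1 read 11.01, 11.14 and 11.13 in PIM1 cells, against 9.80, 9.65 and 9.74 in EV cells, with no overlap. The other 4 genes of that list of 6 did not pass, though 5 of the 6 had an unadjusted limma p under 0.05. Mt3 and Mt4 differed the other way, by -0.39 and -0.38, with no overlap (adjusted p = 0.0771 and 0.0625). Mtf1 differed by 0.24 and Mtf2 by 0.13 (adjusted p = 0.119 and 0.528). Of 12 lipocalin relatives of Lcn2, 4 rose and 0 fell (median 0.15). They were the retinol carrier gene Rbp4 (2.06) and the acute-phase orosomucoid genes Orm2 (4.15), Orm1 (2.05) and Orm3 (1.18), with limma adjusted p between 2.64e-06 and 0.00240. Orm1, Orm2 and Orm3, like Mt1 and Mt2, are close copies of each other, so their probe sets may share signal.

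**Figure D4:**
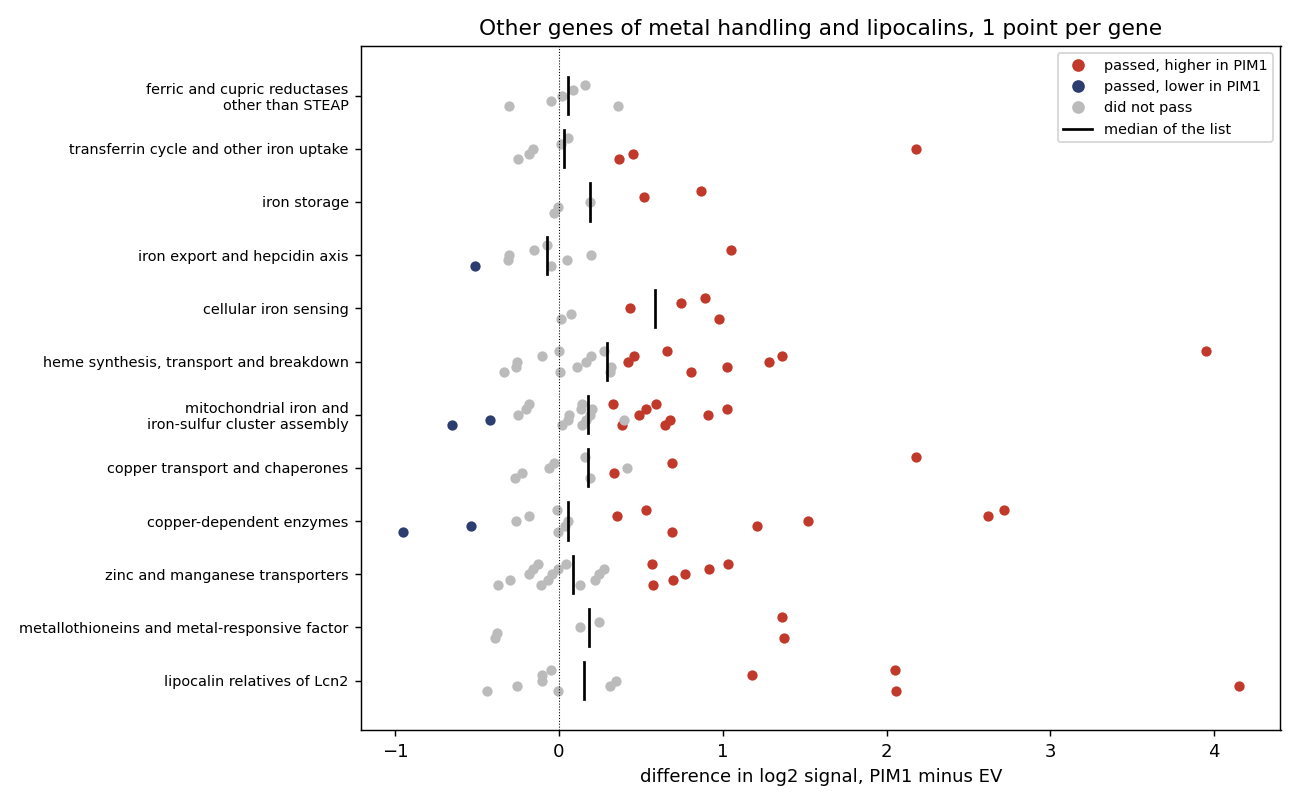
Difference in log2 signal, PIM1 minus EV (horizontal axis), of 129 other metal-handling genes and 12 lipocalin relatives of Lcn2 by list, 1 point per gene, coloured by whether the gene passed adjusted p under 0.05, with the list median as a black line. Most points lie near 0, and the passing points (49 higher, 5 lower) lie mainly on the PIM1-higher side, with Orm2 (4.15) and Hp (3.95) farthest out.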

How the data were processed

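RNA of 3 PIM1 and 3 EV samples, grouped by sample title, was measured on Affymetrix whole-transcript mouse arrays. The deposited values, 1 per probe set on every array, were read as log2 signals because of their range. Their tool is named as Affymetrix Expression Console, per the submitters' processing notes. No source used here gives the log base, background correction, summarization or normalization. The values were not scaled again. No detection calls were used, and 3 arrays per group limit the precision.

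Of 41345 probe sets, 23521 carry 1 gene symbol, 1814 several and 16010 none in the platform annotation; 23328 matched RefSeq by Entrez identifier. Per gene the probe set with the highest mean was kept (22180 genes). The test of PIM1 against EV used R 4.3.3 and limma 3.58.1 (lmFit, eBayes, two-sided, group as only term), with Benjamini-Hochberg adjustment over all genes and a threshold of 0.05; the fit was tested on simulated data. Members, lists and tests were chosen with earlier results of these data known. The text names the members, up to 4 genes of smallest p per list that passed, well-known genes of each list (Ftl1 and Trf were not analysed here), 3 neighbours on each side and 3 most similar genes; the epithelial markers and albumin were named after their values were seen. Promoter windows were found for 7 of 10 members. Alternatives were a trended robust variance, quantile normalization, median centring, the brighter genes only, averaged probe sets, a block for the replicate number, omission of single arrays, and cyclic loess, which was added after seeing the data.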

Additional observations from a re-analysis of the deposited data

How the results depend on the processing

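Over 13 alternative settings the number of genes called lay between 4167 and 6574 (5995 as reported), that of other metal-handling and lipocalin genes between 43 and 59 (54 as reported), and 7 or 8 members passed. Steap1, Steap2, Steap4, Lcn2, Cp, Slc11a2 and Slc39a14 passed, higher in PIM1, in all 13. The refits use the arrays on which the members were picked, so nothing is read from members passing. Tfrc passed, lower in PIM1, in 5 of 13 (trended variance, quantile normalization, brighter genes, without PIM1 replicate 3, and cyclic loess), Steap3 in 1 of 13 (without EV replicate 3) and Slc40a1 in 1 of 12 (without EV replicate 1, -0.73); Slc40a1 is not among the brighter genes. Genes higher in PIM1 made up 47.0% of calls after quantile normalization and 54.2% after cyclic loess, beside 59.6%. The sign of 7 uncalled genes turned: Ireb2 was -0.12 under quantile normalization, -0.092 under cyclic loess and between -0.096 and 0.091 when 1 array was left out (below 0 without PIM1 replicate 3 or EV replicate 3). Slc22a17 was -0.15 and -0.057 under the same 2 normalizations and between -0.047 and 0.174 when 1 array was left out (below 0 without PIM1 replicate 3 or EV replicate 1). Tex47 was 0.062 and 0.083 under these and between -0.209 and 0.0237 when 1 array was left out, and Krt8 between -0.129 and 0.0064; Tex47 was above 0 without PIM1 replicate 1 and Krt8 without PIM1 replicate 3. Mir199b was 0.032 and 0.046 under the same 2 normalizations. With 1 array left out Gm8773 lay between -0.058 and 0.170 (below 0 without PIM1 replicate 3 or EV replicate 2) and Cyb561d1 between -0.035 and 0.438 (below 0 without EV replicate 3). Besides the changes named in the report, Dbf4 passed in 4 of 13 settings Gtpbp10, Gyg and Sri in 2 of 13 each, and Ciz1 and Slc25a25 among the brighter genes. Same-numbered arrays did not deviate together (correlations 0.0558, -0.0314 and 0.00875), and pairs with unlike numbers lay between -0.0632 and 0.0547. With 3 arrays a group, these values cannot settle whether the numbers pair the samples. With the replicate block 5321 genes, 48 other metal-handling and lipocalin genes and 7 members passed. Members have 1 probe set each, so no other could be tried. Why calls changed was not tested. Low signals, as for Slc40a1 and for Steap4 and Lcn2 in EV cells, cannot be told from background.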
